A study of Mus musculus with 14 samples.

Results

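The genes described here are 10 genes of fatty acid uptake and mitochondrial fatty acid oxidation, chosen by name: Cd36, Fabp3, Cpt1a, Cpt1b, Cpt2, Acadvl, Acadl, Acadm, Hadha and Hadhb. A gene was measured through the probe set that carried its symbol and no other, and through the one with the highest mean where it had several. By that rule 9 of the 10 genes were measured, out of 19931 genes on the array. The probe set for Cpt1b, the muscle form of the first carnitine enzyme, is also annotated to the gene Gm44502, so Cpt1b was given no value. Fabp3 and Hadhb had 2 probe sets each, and their pairs differed by at most 0.21 and 0.12 on the log2 scale in any array.

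The study measured RNA from hearts of mouse embryos at E12.5, counted in embryonic days, with mutations in the homeobox transcription factors Irx3 and Irx5, on Affymetrix gene arrays. Heart muscle genes were present in every group, with Myh7 averaging 11.45 to 12.62 and Actn2 10.16 to 11.90 on the log2 scale. The reference group was Irx5+/- (3 arrays), which has lost 1 copy of Irx5 and was treated as the control by the study. The other groups were Irx3-/-;Irx5+/- (4 arrays), which lacks Irx3 and has also lost 1 copy of Irx5, Irx5-/- (3 arrays), and the double mutant Irx3-/-;Irx5-/- (4 arrays). Every embryo therefore carried at least 1 mutant copy of Irx5, and no wild-type heart enters any comparison. The labels do not say that each array is a separate embryo, nor name the strain, so p-values speak only of the spread among these arrays, which may be technical.

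Values are log2 signals after the authors' normalization, and a difference of 1 on this scale is a 2-fold difference. Irx3 averaged 8.47 ± 0.05 (SD) in Irx5+/-, 7.97 ± 0.14 in Irx3-/-;Irx5+/-, 8.19 ± 0.06 in Irx5-/- and 7.73 ± 0.11 in the double mutant, and Irx5 averaged 8.32 ± 0.11, 8.26 ± 0.06, 8.04 ± 0.27 and 8.05 ± 0.38. Irx3 did not overlap between the groups in any comparison of groups made here, whereas Irx5 overlapped in every one. That includes Irx5-/- against the reference (Irx3 at -0.27 ± 0.10, SE), although the Irx5-/- label names no loss of Irx3. For Irx3 the limma adjusted p was 0.0201 in the double mutant against the reference and 0.673 in Irx3-/-;Irx5+/- against it. The labels do not say whether the probe sets lie in the deleted parts, so these signals are an incomplete check of the labels, and every group name below is the label's. Irx5 read 7.86, 8.34 and 7.91 in the Irx5-/- arrays and 8.20, 8.43, 7.52 and 8.04 in the double mutant arrays, so Irx5-/- replicate 2 and double mutant replicate 1 lay inside the 8.19 to 8.41 of the reference and double mutant replicate 2 above it. The array labelled Irx3-/-;Irx5+/- replicate 4 carries a second description that names Irx5-/-, and is called the array of uncertain label below. Its Irx3 signal was 8.17, above the 7.87 to 7.93 of the other arrays of its label and inside the 8.14 to 8.25 of the Irx5-/- arrays, while its Irx5 signal was 8.31, equal to the highest of its labelled group. The fits were repeated without each of these 4 arrays, a choice made after the data were seen, and values without one of them stand beside results below.

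Fatty acids enter heart cells with the help of the membrane protein CD36 and travel in the cytosol bound to FABP3, the fatty acid binding protein of heart and muscle. The carnitine shuttle then carries them into mitochondria, with CPT1 at the outer membrane (CPT1A and CPT1B are its liver and muscle forms) and CPT2 at the inner membrane. Inside, the acyl-CoA dehydrogenases ACADVL, ACADL and ACADM take the first oxidation step on very long, long and medium chains, and HADHA and HADHB, the subunits of the trifunctional protein, carry out the following steps on long chains. The embryonic heart draws mainly on glucose and lactate, and fatty acid oxidation becomes its main fuel supply after birth.

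Promoter sequences, from 250 bases before to 50 bases after the RefSeq start of each gene (assembly GRCm38.p6), are shown for 4 genes on which the results turn. Hadha and Hadhb are shown because they encode subunits of 1 complex from starts that lie head to head, 273 bases apart. The Hadha window is chr5:30154931-30155230 on the minus strand and the Hadhb window is chr5:30155003-30155302 on the plus strand. Capitals mark the 228 bases that both windows hold, read on opposite strands:
Hadha: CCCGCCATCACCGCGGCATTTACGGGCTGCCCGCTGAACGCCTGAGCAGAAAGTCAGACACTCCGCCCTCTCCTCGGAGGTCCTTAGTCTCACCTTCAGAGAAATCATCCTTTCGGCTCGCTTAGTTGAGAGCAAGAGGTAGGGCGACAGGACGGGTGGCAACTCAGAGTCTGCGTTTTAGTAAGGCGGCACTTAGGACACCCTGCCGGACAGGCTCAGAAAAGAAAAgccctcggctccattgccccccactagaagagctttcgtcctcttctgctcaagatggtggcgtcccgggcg
Hadhb: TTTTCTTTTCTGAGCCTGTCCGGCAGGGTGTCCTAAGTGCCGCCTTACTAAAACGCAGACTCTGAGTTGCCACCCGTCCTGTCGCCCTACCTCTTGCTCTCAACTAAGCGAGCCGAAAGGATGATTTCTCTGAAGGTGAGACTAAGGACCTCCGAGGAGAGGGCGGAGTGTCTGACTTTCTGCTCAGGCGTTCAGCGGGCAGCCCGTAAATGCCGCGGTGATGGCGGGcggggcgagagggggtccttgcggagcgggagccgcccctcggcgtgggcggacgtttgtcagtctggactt
Of the 16560 plus-strand promoters in the RefSeq table, 1388 (8.38%) had a minus-strand start of another gene within 300 bases upstream.

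Cd36 and Cpt1a are shown because their arrays did not overlap between groups, Cd36 between each mutant group and the reference and Cpt1a between the double mutant and Irx5-/-. Fabp3 arrays also did not overlap the reference in Irx5-/- and in the double mutant. The Fabp3 window is not shown, and it held neither the hexamer marked below nor the GC box counted below. Their windows are chr5:17835847-17836146 on the minus strand and chr19:3323051-3323350 on the plus strand. Capitals mark the letters AGGTCA on either strand, the core hexamer to which nuclear receptors such as PPARs and ERRs bind; TGACCT is the same letters on the opposite strand:
Cd36: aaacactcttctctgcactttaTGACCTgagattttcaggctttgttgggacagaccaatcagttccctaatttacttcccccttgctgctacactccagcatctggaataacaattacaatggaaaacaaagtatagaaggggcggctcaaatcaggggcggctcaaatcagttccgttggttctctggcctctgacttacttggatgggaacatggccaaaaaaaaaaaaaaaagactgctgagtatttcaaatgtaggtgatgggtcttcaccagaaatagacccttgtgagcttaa
Cpt1a: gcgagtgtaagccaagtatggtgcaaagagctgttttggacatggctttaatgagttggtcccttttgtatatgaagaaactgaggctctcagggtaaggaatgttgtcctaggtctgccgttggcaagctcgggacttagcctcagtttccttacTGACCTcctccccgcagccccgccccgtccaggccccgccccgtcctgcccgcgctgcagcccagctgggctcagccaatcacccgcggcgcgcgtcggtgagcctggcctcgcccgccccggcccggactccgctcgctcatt
The hexamer lay 228 bases before the start of Cd36 and 94 bases before that of Cpt1a. It was found in 4 of the 9 measured genes' promoters (Cd36, Cpt1a, Acadvl and Acadm) and in 16.3% of 32851 promoters. The longer ERR element TCAAGGTCA, which contains the hexamer, was in 0 of 9 against 0.423% of promoters, and the PPAR direct repeat AGGTCANAGGTCA, which contains it 2 times, in 0 of 9 against 0.0396%. Exact strings this rare are absent from most sets of 9 promoters, so these counts of 0 do not set the genes apart. The GC box GGGCGG was in 6 of 9 (Cd36, Cpt1a, Cpt2, Acadl, Hadha and Hadhb) against 35.7%. These matches, searched on both strands, describe letters in these windows and not binding.

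No measured gene passed the threshold (limma, Benjamini-Hochberg adjusted p under 0.05 over all 19931 genes, 2-sided) in any of the 6 comparisons between groups. Few genes of the whole array did: 0 were called in Irx3-/-;Irx5+/- against the reference, 0 in Irx5-/- against it, 4 in the double mutant against it (0.0201%), 1 in the double mutant against Irx3-/-;Irx5+/- (0.00502%), 0 in the double mutant against Irx5-/- and 0 in the interaction. At an unadjusted p under 0.05, 2, 3 and 2 of the 9 passed in the 3 comparisons with the reference, where 5.07%, 10.6% and 13.5% of all genes did. In the other 3 comparisons, in the order above, 1, 1 and 2 of the 9 did, beside 7.67%, 3.63% and 4.04% of genes. The median difference of the 9 genes from the reference was 0.34 in Irx3-/-;Irx5+/-, 0.55 in Irx5-/- and 0.42 in the double mutant, beside medians over all genes of 0.00, -0.03 and -0.03. Leaving out 1 array at a time moved these medians to between 0.04 and 0.53, 0.14 and 0.79, and 0.25 and 0.66, with 0.04 and 0.25 reached without Irx5+/- replicate 3 and 0.14 without Irx5-/- replicate 2. Of the 9, 6, 9 and 8 lay above 0 in these comparisons, which share the reference arrays. Of all genes 50%, 44.4% and 43.9% did, the shares to set beside the counts of the lists below. The count of the 9 for Irx5-/- was 6 without Irx5-/- replicate 2, with Cpt2, Acadvl and Hadha below 0, and 1 of the 9 had an unadjusted p under 0.05. In the double mutant 4 then had one. Without the array of uncertain label the median for Irx3-/-;Irx5+/- was 0.28, and 0 of the 9 had an unadjusted p under 0.05. Hearts with fewer muscle cells and muscle cells with less of these RNAs cannot be told apart in such bulk samples.

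**Figure D1:**
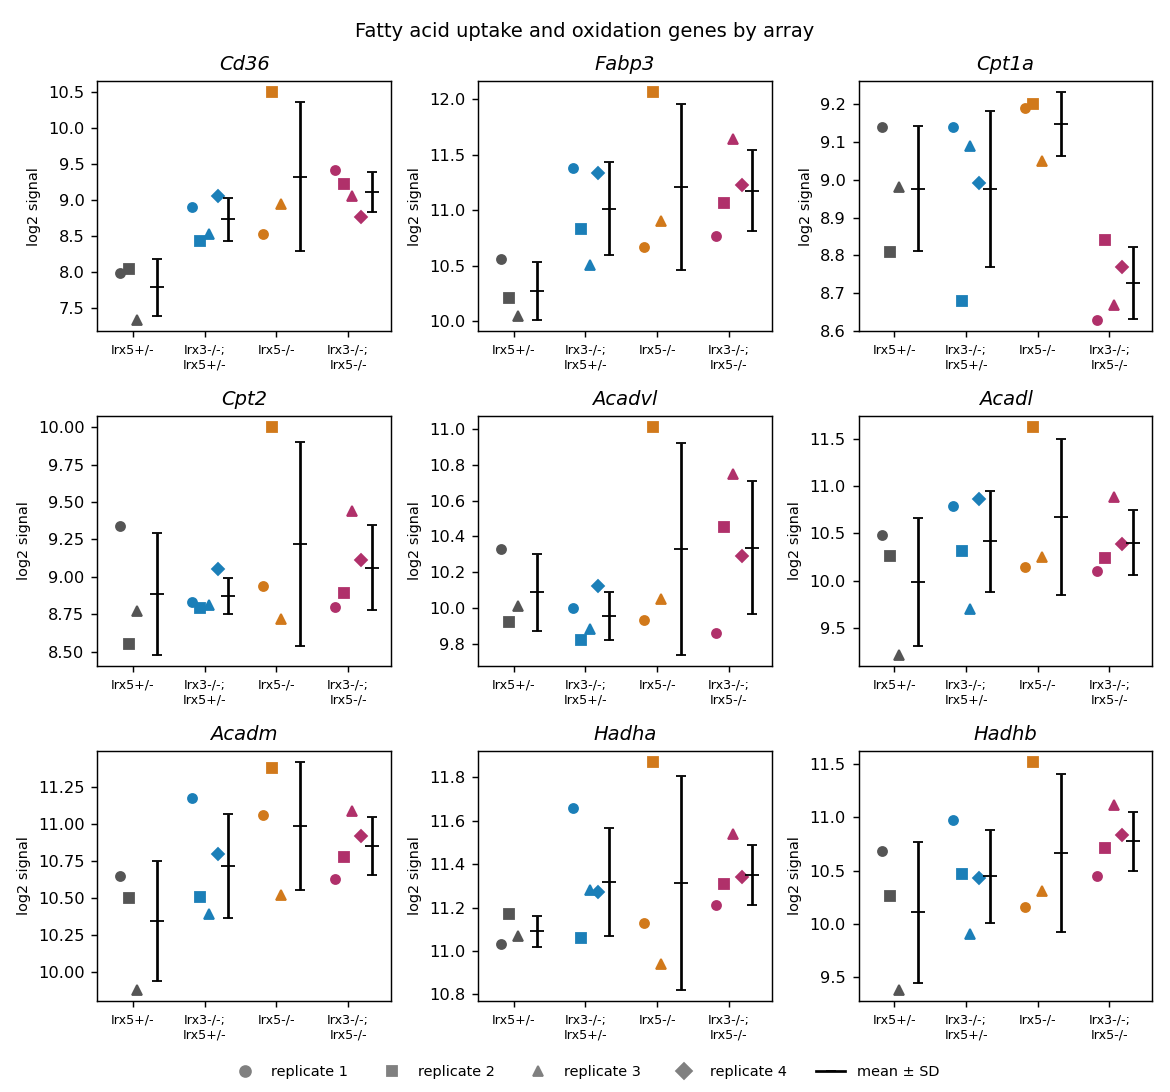
Log2 signal of the 9 measured genes (vertical axis, 1 panel per gene, each with its own range) in the 14 arrays by genotype, with a symbol per replicate number and the mean ± SD beside each group. Irx5-/- replicate 2 is the highest of all 14 arrays in every panel, and in Cd36 all 11 mutant arrays lie above the 3 reference arrays.

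Cd36, the uptake receptor, had the largest differences of the 9. Its log2 signal was 7.98, 8.04 and 7.33 in the Irx5+/- arrays, against 8.90, 8.43, 8.53 and 9.06 in the Irx3-/-;Irx5+/- arrays. It was 8.53, 10.50 and 8.95 in the Irx5-/- arrays and 9.42, 9.23, 9.06 and 8.76 in the double mutant arrays. All 11 mutant arrays lay above all 3 reference arrays, which none of the other 8 genes did and which 160 genes (0.803%) did on the whole array. The difference from the reference was 0.95 ± 0.36 (SE; 1.93-fold, limma adjusted p = 0.952) in Irx3-/-;Irx5+/- and 0.84 without the array of uncertain label. It was 1.55 ± 0.39 (2.92-fold, limma adjusted p = 0.252) in Irx5-/-. Without Irx5-/- replicate 2, the highest array, that difference was 0.96.

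In the double mutant Cd36 lay 1.33 ± 0.36 above the reference (2.52-fold, limma adjusted p = 0.167; unadjusted p = 0.00272). This is the 1 group difference among the 9 genes that another choice of arrays carried past the threshold: with Irx5-/- replicate 2 left out of the shared estimate of spread, the limma adjusted p was 0.0408 at the same difference. Over all 14 fits that leave out 1 array, the difference ran from 1.11 to 1.46 and the adjusted p from 0.0408 to 0.369. Its spread over arrays (SD 0.75) exceeded that of 98.9% of genes. The levels ran in the order Irx5+/-, Irx3-/-;Irx5+/-, double mutant, Irx5-/-, and the last 3 overlapped one another. The last pair changed places without Irx5-/- replicate 2, as the double mutant minus Irx5-/- went from -0.21 to 0.37. The interaction, which subtracts what Irx3 loss does with 1 Irx5 copy present from what it does with none, was -1.16 ± 0.52 (limma adjusted p = 1; unadjusted p = 0.0416), and -0.57 without Irx5-/- replicate 2 and -1.05 without the array of uncertain label.

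CD36 is also made by endothelial cells, so the endothelial list is given beside it. All 21 measured endothelial and endocardial markers lay below the reference in Irx5-/- and in the double mutant, and 19 of 21 in Irx3-/-;Irx5+/-, with medians of -0.63, -0.70 and -0.15. None was called by limma, while 14, 15 and 2 had an unadjusted p under 0.05. In the double mutant Cd34 was called without Irx5-/- replicate 2, and Pecam1 without double mutant replicate 2. The list's mean per array, with each gene centred on its own mean, ran from 0.24 to 0.58 in the reference arrays, 0.07 to 0.47 in Irx3-/-;Irx5+/-, -0.42 to -0.14 in Irx5-/- and -0.69 to 0.14 in the double mutant. With that mean as a term of the fit, the Cd36 differences were 1.10 ± 0.34, 2.16 ± 0.48 and 2.01 ± 0.49 in Irx3-/-;Irx5+/-, Irx5-/- and the double mutant (limma adjusted p = 0.789, 0.526 and 0.371). They were 1.07, 1.47 and 1.85 without Irx5-/- replicate 2. The endothelial mean did not overlap the reference in Irx5-/- or in the double mutant. Since it differs between the groups, this fit cannot part endothelial content from genotype. The part of endothelial cells in the Cd36 signal was not tested.

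Fabp3, the cytosolic carrier, gave the next largest differences. Its log2 signal was 10.56, 10.21 and 10.05 in the Irx5+/- arrays, 11.38, 10.83, 10.51 and 11.33 in Irx3-/-;Irx5+/-, 10.67, 12.06 and 10.90 in Irx5-/- and 10.77, 11.06, 11.64 and 11.23 in the double mutant. The Irx5-/- and double mutant arrays lay wholly above the reference, and replicate 3 of Irx3-/-;Irx5+/- lay just below the highest reference array. The differences were 0.74 ± 0.31 in Irx3-/-;Irx5+/- (limma adjusted p = 0.956; 0.63 without the array of uncertain label), 0.93 ± 0.33 in Irx5-/- (adjusted p = 0.374) and 0.90 ± 0.31 in the double mutant (adjusted p = 0.245). The Irx5-/- difference was 0.51 without Irx5-/- replicate 2.

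Counted over the 9 genes, the arrays of the 2 groups did not overlap, with the mutant higher, for 1 gene in Irx3-/-;Irx5+/- (Cd36; 2.86% of all genes), 2 in Irx5-/- (Cd36 and Fabp3; 6.71%) and 3 in the double mutant (Cd36, Fabp3 and Hadha; 6.48%). In the other direction it was 0 of the 9 in each of these groups, beside 2.87%, 9.52% and 5.58% of all genes. Fabp3 and Cd36 are the uptake genes of the list, and Hadha encodes a subunit of the trifunctional protein.

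**Figure D2:**
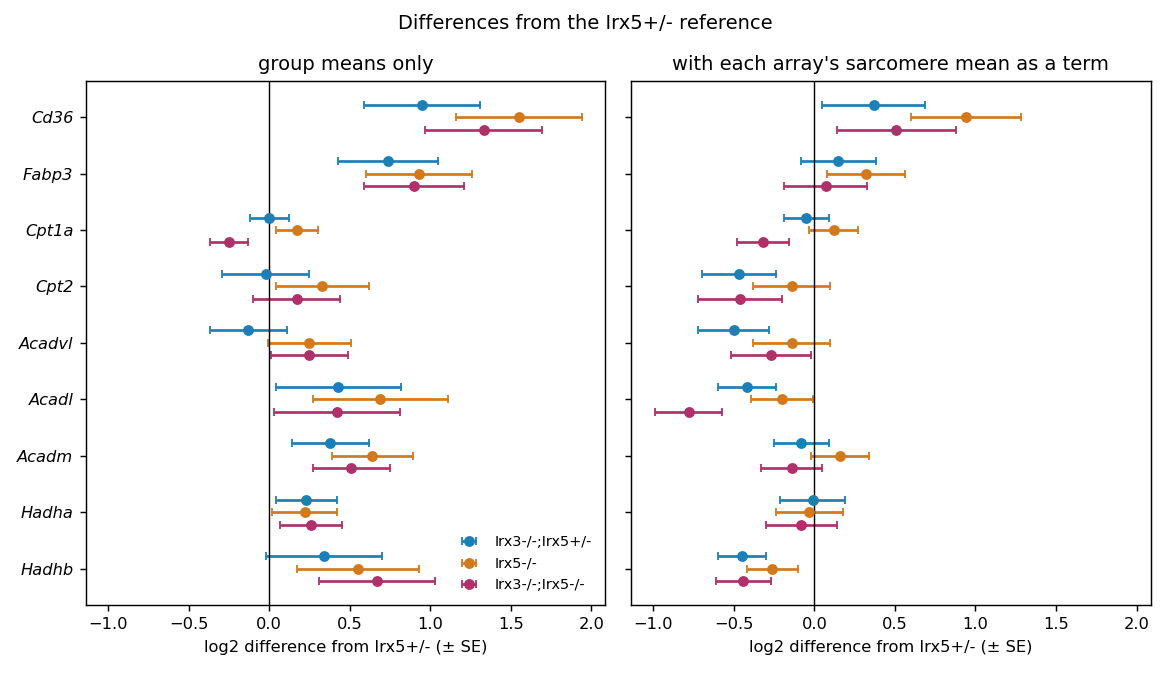
Log2 difference of each gene from the Irx5+/- reference (horizontal axis, point ± SE) in the 3 mutant groups, from group means alone (left) and with the sarcomere mean of each array as a term (right). Cd36 lies at 0.95, 1.55 and 1.33 on the left and at 0.37, 0.94 and 0.51 on the right, and no difference passed the adjusted threshold in either panel.

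Cpt1a, the liver form of the outer-membrane enzyme and the measured entry step of the shuttle, was the 1 gene that lay below the reference in the double mutant. Its log2 signal was 9.14, 8.81 and 8.98 in Irx5+/-, 9.14, 8.68, 9.09 and 8.99 in Irx3-/-;Irx5+/-, 9.19, 9.20 and 9.05 in Irx5-/- and 8.63, 8.84, 8.67 and 8.77 in the double mutant. The double mutant arrays lay wholly below the Irx5-/- arrays, the 1 gene of the 9 to do so (1.98% of all genes), and overlapped the reference and Irx3-/-;Irx5+/-. The double mutant differed from Irx5-/- by -0.42 ± 0.12 (0.747-fold; unadjusted p = 0.00338, rank 45 of all genes, but limma adjusted p = 1). Against the reference the double mutant lay at -0.25 ± 0.12 (limma adjusted p = 0.38), Irx3-/-;Irx5+/- at -0.00 ± 0.12 and Irx5-/- at 0.17 ± 0.13. The interaction was -0.42 ± 0.17 (unadjusted p = 0.0262, limma adjusted p = 1), and -0.39 without Irx5-/- replicate 2.

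Cpt2, the inner-membrane enzyme, overlapped between all groups. Its log2 signal was 9.34, 8.55 and 8.77 in Irx5+/-, 8.83, 8.79, 8.81 and 9.05 in Irx3-/-;Irx5+/-, 8.94, 9.997 and 8.72 in Irx5-/- and 8.80, 8.89, 9.44 and 9.11 in the double mutant. Irx5-/- replicate 2 stood alone at the top, and the differences from the reference were -0.02 ± 0.27, 0.33 ± 0.29 and 0.17 ± 0.27. Without that array the Irx5-/- difference was -0.06.

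Of the acyl-CoA dehydrogenase genes, Acadm (medium chain) had the smallest p-values against the reference. Its log2 signal was 10.65, 10.50 and 9.88 in Irx5+/-, 11.18, 10.51, 10.39 and 10.80 in Irx3-/-;Irx5+/-, 11.06, 11.38 and 10.52 in Irx5-/- and 10.63, 10.78, 11.09 and 10.92 in the double mutant. Every mutant group overlapped the reference, whose replicate 3 was the lowest of all 14 arrays. The differences were 0.38 ± 0.24, 0.64 ± 0.25 (unadjusted p = 0.0254, limma adjusted p = 0.416) and 0.51 ± 0.24, and without Irx5+/- replicate 3 they were 0.14, 0.41 and 0.28.

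Acadl (long chain) depended most on that reference array. It read 10.48, 10.26 and 9.22 in Irx5+/-, 10.79, 10.31, 9.70 and 10.86 in Irx3-/-;Irx5+/-, 10.15, 11.62 and 10.25 in Irx5-/- and 10.10, 10.24, 10.88 and 10.39 in the double mutant. The groups overlapped throughout, and the differences were 0.43 ± 0.39, 0.69 ± 0.42 and 0.42 ± 0.39. Without Irx5+/- replicate 3 they were 0.04, 0.30 and 0.03, and without Irx5-/- replicate 2 the Irx5-/- difference was 0.22. Acadvl (very long chain) ranged from 9.92 to 10.33 in Irx5+/-, 9.82 to 10.12 in Irx3-/-;Irx5+/-, 9.93 to 11.01 in Irx5-/- and 9.86 to 10.75 in the double mutant, with differences of -0.13 ± 0.24, 0.25 ± 0.26 and 0.25 ± 0.24. The Irx5-/- difference turned to -0.09 without Irx5-/- replicate 2.

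Hadha and Hadhb, the alpha and beta subunits of the trifunctional protein, differed in how much they varied. Hadha read 11.03, 11.17 and 11.07 in Irx5+/-, 11.66, 11.06, 11.28 and 11.27 in Irx3-/-;Irx5+/-, 11.13, 11.87 and 10.94 in Irx5-/- and 11.21, 11.31, 11.54 and 11.34 in the double mutant. Hadhb read 10.68, 10.26 and 9.38, then 10.98, 10.47, 9.90 and 10.43, then 10.16, 11.52 and 10.31, and last 10.45, 10.71, 11.12 and 10.83 in the same order. The double mutant lay wholly above the reference for Hadha by a small margin, whereas Hadhb overlapped between all groups and spread further in the reference arrays alone, from 9.38 to 10.68, than Hadha did over all 14 arrays, from 10.94 to 11.87. The SD over all 14 arrays was 0.26 for Hadha and 0.53 for Hadhb, above 71.1% and 95.9% of genes. The differences from the reference were 0.23 ± 0.19, 0.22 ± 0.20 and 0.26 ± 0.19 for Hadha and 0.34 ± 0.36, 0.55 ± 0.38 and 0.67 ± 0.36 for Hadhb, and without Irx5+/- replicate 3 the Hadhb differences were -0.03, 0.19 and 0.30. The Irx5-/- differences were -0.05 for Hadha and 0.13 for Hadhb without Irx5-/- replicate 2. Without the array of uncertain label, the Irx3-/-;Irx5+/- differences were -0.01 for Cpt1a, -0.08 for Cpt2, -0.18 for Acadvl, 0.28 for Acadl, 0.35 for Acadm, 0.24 for Hadha and 0.34 for Hadhb.

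The same 2 arrays recur in these values. Irx5-/- replicate 2 was the highest of the 14 arrays for all 9 genes, which was so for 10.2% of genes on the array, and Irx5+/- replicate 3 was the lowest for 5 of them (Cd36, Fabp3, Acadl, Acadm and Hadhb), against 9.07% of genes. They were also the arrays with the highest and the lowest sarcomere signal, the measure of heart muscle content used next. The macrophage list had its highest mean, 0.51, in Irx5-/- replicate 2, against -0.29 to 0.09 in the other arrays. The lists of epicardial, cushion mesenchyme and erythroid markers had their lowest means of the 14 arrays there, at -0.90, -0.45 and -0.50. The part of these cell types in the values was not tested.

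The genes were then set beside the sarcomere content of each array. For 31 measured genes of the contractile apparatus (such as Myh6, Tnnt2, Actn2 and Ttn), the mean of the log2 signal, each gene centred on its own mean, was 0.06, -0.60 and -1.47 in the Irx5+/- arrays, 0.36, 0.06, -0.39 and 0.23 in Irx3-/-;Irx5+/-, -0.22, 0.78 and -0.26 in Irx5-/- and 0.19, 0.26, 0.58 and 0.43 in the double mutant. The mean of the 9 fatty acid genes, built in the same way, was -0.06, -0.33 and -0.67, then 0.24, -0.20, -0.29 and 0.13, then -0.11, 0.94 and -0.12, and last -0.10, 0.09, 0.38 and 0.10. Both means were lowest in Irx5+/- replicate 3 and highest in Irx5-/- replicate 2, and the double mutant arrays lay above all reference arrays in the sarcomere mean. The median difference of the sarcomere genes from the reference was 0.77, 0.90 and 1.16 in Irx3-/-;Irx5+/-, Irx5-/- and the double mutant, larger than that of the fatty acid genes, and 0 of 31 were called by limma, with 14, 13 and 26 at an unadjusted p under 0.05. The Irx5-/- median was 0.53 without Irx5-/- replicate 2, where 0 of 31 had such a p, and without the array of uncertain label 7 did in Irx3-/-;Irx5+/-.

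**Figure D3:**
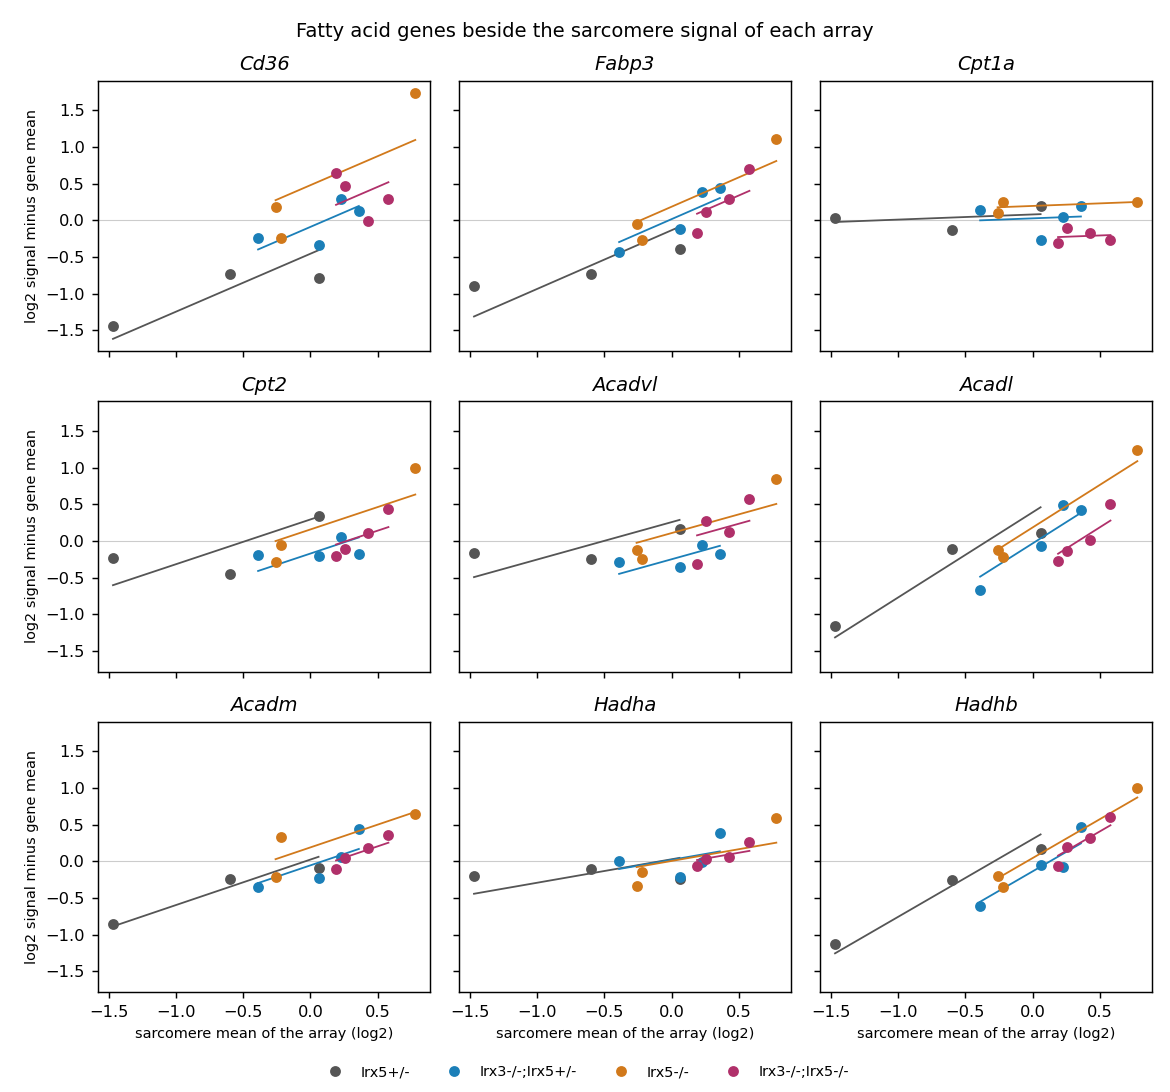
Log2 signal of each gene minus its mean over arrays (vertical axis) against the sarcomere mean of the array (horizontal axis, log2), 1 point per array coloured by genotype, with the fitted line per group (common slope per gene). Acadl and Hadhb climb with slopes of 1.16 and 1.06, and Cpt1a is nearly flat at 0.07.

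Within genotypes, the signal of 4 of the 9 genes rose with the sarcomere mean (limma with group means and the sarcomere mean as terms, adjusted p under 0.05), against 2.52% of all genes that rose and 0.853% that fell (3.38% in either direction). At an unadjusted p under 0.05, 8 of the 9 and 14.3% of all genes passed. All 9 slopes were above 0, with a median of 0.62 log2 per log2, while the slopes of all genes ran from -0.36 at the 5th percentile to 0.42 at the 95th, with a median of -0.01. The called genes were Hadhb, at 1.06 ± 0.11 (SE; adjusted p = 9.99e-05), Acadl, at 1.16 ± 0.13 (adjusted p = 0.00029), Acadm, at 0.62 ± 0.12 (adjusted p = 0.0127) and Fabp3, at 0.80 ± 0.17 (adjusted p = 0.0197). For scale, the sarcomere genes that define the axis had a median slope of 1.07, with a range from -0.00 to 1.87. Tnnt2 and Actc1 lay at 0.42 and 0.39, and Actn2 and Myoz2 at 1.73 and 1.87, so these genes did not follow their own mean equally. Cpt2 (0.61 ± 0.17, adjusted p = 0.0664), Cd36 (0.79 ± 0.24, adjusted p = 0.102), Acadvl (0.51 ± 0.16, adjusted p = 0.134) and Hadha (0.32 ± 0.14, adjusted p = 0.323) did not pass. Cpt1a lay at 0.07 ± 0.10 (adjusted p = 0.882). Of 8 macrophage markers 1 rose on the same axis, Lyz2 (1.06 ± 0.21, adjusted p = 0.0157), which was not called without Irx5-/- replicate 2, and of 21 endothelial markers 0 passed.

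The slopes of Hadhb and Acadl passed in each of the 14 fits that leave out 1 array, with limma adjusted p of at most 0.00216 and 0.00566. All 4 calls held without the array of uncertain label and without double mutant replicate 1 or 2. Fabp3 lost the call without Irx5-/- replicate 2 (0.60, adjusted p = 0.167) and without replicate 3 of Irx3-/-;Irx5+/- (0.76, adjusted p = 0.0548), and Acadm without Irx5-/- replicate 2 (0.64, adjusted p = 0.0664). Fabp3 also lost it when the sarcomere mean was taken over a shorter list of sarcomere genes (0.74, adjusted p = 0.131). Other settings added calls. Without Irx5+/- replicate 3, Cpt2 (0.95, adjusted p = 0.00776) and Acadvl (0.80, adjusted p = 0.0258) passed. Cpt2 also passed without Irx5+/- replicate 2, with array weights and among genes above the median level. Cd36 passed with the endothelial term (0.78, adjusted p = 0.0477), with array weights (0.97, adjusted p = 0.0486) and without group terms. Without both Irx5-/- replicate 2 and Irx5+/- replicate 3, Hadhb alone passed (1.08, adjusted p = 0.0494), Acadl lay at 1.20 (adjusted p = 0.0727), and 117 genes were called on the whole array. The Cd36 slope was 0.38 without Irx5-/- replicate 2 and 0.10 without both arrays.

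The pair of trifunctional protein subunits separated on this axis. Each gene was read by its own probe set, with means of 11.28 for Hadha and 10.51 for Hadhb over all arrays. Whether these probe sets respond alike to RNA amount was not tested, nor was any part of the promoters. The difference Hadhb minus Hadha changed by 0.74 ± 0.12 per unit of sarcomere mean with genotype means in the fit. The pair was picked after its values were seen, so no test is attached to it.

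With the sarcomere mean in the fit, every difference of the 9 genes from the reference was lower than without it, as all 9 slopes were above 0 and the mutant groups had the higher sarcomere means. The median of the 9 genes was -0.08 in Irx3-/-;Irx5+/-, -0.03 in Irx5-/- and -0.27 in the double mutant, with 2, 4 and 2 of 9 above 0. Cd36 and Fabp3 were above 0 in all 3 groups, Cd36 at 0.37 ± 0.32, 0.94 ± 0.34 and 0.51 ± 0.37 and Fabp3 at 0.15 ± 0.23, 0.32 ± 0.24 and 0.07 ± 0.26. Acadl lay at -0.42 ± 0.18, -0.20 ± 0.19 and -0.78 ± 0.21, the last with an unadjusted p of 0.00225 and a limma adjusted p of 0.305. The Cpt1a difference between the double mutant and Irx5-/- was -0.44 ± 0.12, close to its value without the term. No gene of the 9 was called by limma, and neither was any other gene in these 3 comparisons. The fit without Irx5-/- replicate 2 called 2, 1 and 0 genes of the whole array and 0 of the 9, and Cd36 lay there at 0.67 ± 0.25, 0.80 ± 0.25 and 0.94 ± 0.29. The double mutant difference of Cd36 was 0.31 ± 0.37 without double mutant replicate 1. In the fit of all 14 arrays, 3, 1 and 2 of the 9 had an unadjusted p under 0.05, beside 5.96%, 8.77% and 8.17% of genes. In Irx3-/-;Irx5+/- these were Acadvl (-0.50 ± 0.22), Acadl and Hadhb (-0.45 ± 0.15), all below the reference. In the double mutant they were Acadl and Hadhb (-0.44 ± 0.17), also below it, and in Irx5-/- Cd36, above it. Since the sarcomere mean differs between the groups, this fit cannot part muscle content from genotype.

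Other genes of the pathway, on lists that do not include the 9, give the surroundings. Of 17 other genes of mitochondrial beta oxidation and electron transfer, 16, 15 and 15 lay above the reference in Irx3-/-;Irx5+/-, Irx5-/- and the double mutant, with medians of 0.29, 0.25 and 0.29. None was called by limma, and 3, 6 and 8 had an unadjusted p under 0.05 upward. The lowest p-values in the double mutant were those of Hsd17b10 (0.53 ± 0.15), Decr1 (0.59 ± 0.17) and Echs1 (0.78 ± 0.22), which encode a short-chain dehydrogenase, the dienoyl-CoA reductase and the short-chain hydratase (limma adjusted p = 0.169, 0.17 and 0.175). On the sarcomere slope 5 of these 17 genes passed, each upward. Among them were Etfb, a subunit of the electron transfer flavoprotein (0.61 ± 0.09, adjusted p = 0.00182), Eci1, the enoyl-CoA isomerase (0.85 ± 0.14, adjusted p = 0.00593), and Acaa2, the thiolase of the cycle's last step (0.63 ± 0.13, adjusted p = 0.0206). Without Irx5-/- replicate 2 the Irx5-/- median was 0.09, with 12 of 17 above 0, and 1 of the 5 slopes passed, that of Etfb. Without the array of uncertain label, or without double mutant replicate 2, Acaa2, Eci1 and Etfb passed.

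Of mitochondrial genes outside fatty acid oxidation, all 15 measured lay above the reference in each mutant group, with medians of 0.23, 0.36 and 0.47. None was called by limma, and 1, 4 and 12 had an unadjusted p under 0.05. With the sarcomere mean, 8 of 15 rose. They included Idh3a and Cs of the citric acid cycle (1.22 ± 0.16, limma adjusted p = 0.000755, and 0.66 ± 0.10, adjusted p = 0.00206). The Irx5-/- median was 0.14 without Irx5-/- replicate 2, with 14 of 15 above 0, and Cs and Idh3a alone passed on the slope. No test here sets the fatty acid genes apart from these.

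Other lists cover the steps around the oxidation cycle. Of 13 genes of fatty acid transport and activation, 10, 8 and 6 lay above the reference, and 0 rose and 1 fell with the sarcomere mean, the fatty acid transporter gene Slc27a6 (-0.85 ± 0.17, limma adjusted p = 0.0133). Dbi, which encodes the acyl-CoA binding protein, lay at 0.75 ± 0.20 in the double mutant, and the acyl-CoA synthetase gene Acsl4 at 0.78 ± 0.23, neither called (adjusted p = 0.164 and 0.187). The 3 other carnitine genes (Slc25a20, Crat and Cpt1c) and the 9 peroxisomal genes had 0 calls in any comparison with the reference or on the slope.

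Among 16 regulators, 0 were called between a mutant group and the reference and 4 rose with the sarcomere mean. Ppargc1a, the coactivator of mitochondrial biogenesis, had the steepest slope (1.43 ± 0.14, limma adjusted p = 8.16e-05), followed by the orphan receptor gene Esrrg (1.07 ± 0.19, adjusted p = 0.00676), Ppargc1b (0.57 ± 0.13, adjusted p = 0.0297) and Hif1a (0.46 ± 0.11, adjusted p = 0.0409). Without Irx5-/- replicate 2, Ppargc1a and Esrrg alone of the 16 passed, and Hif1a was also lost without the array of uncertain label or double mutant replicate 2. Ppara, the receptor best known for inducing fatty acid oxidation genes, lay at 0.19 ± 0.15 (adjusted p = 0.684). Of 8 genes of malonyl-CoA and fuel choice, 3 rose with the sarcomere mean: Pdk3 and Pdk4, kinases that inhibit pyruvate dehydrogenase (0.67 ± 0.10, adjusted p = 0.00247, and 1.00 ± 0.24, adjusted p = 0.0399), and Acacb, which makes the malonyl-CoA that inhibits CPT1 (0.52 ± 0.12, adjusted p = 0.039). Of these, Pdk3 alone passed in each fit without 1 of the 4 doubted arrays. Of 15 lipolysis and lipid storage genes, 2 rose: Lpl, the lipoprotein lipase (1.13 ± 0.18, adjusted p = 0.00427), and Acot13, an acyl-CoA thioesterase (0.94 ± 0.12, adjusted p = 0.000621). Acot13 alone passed without Irx5-/- replicate 2. The thioesterase gene Acot1 lay 0.67 ± 0.17 above the reference in the double mutant, not called (adjusted p = 0.155), and its slope was -0.06 ± 0.15.

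**Figure D4:**
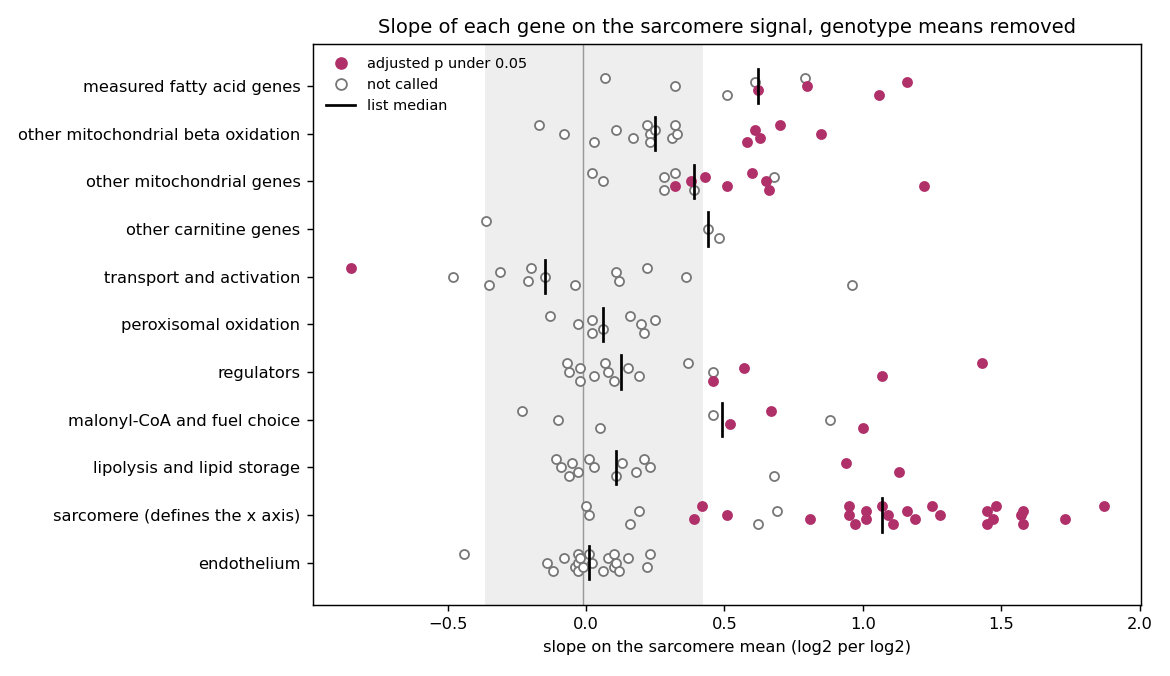
Slope of each gene on the sarcomere mean of the array with genotype means in the fit (horizontal axis, log2 per log2), 1 point per gene by list, filled where the limma adjusted p was under 0.05, with a bar at the list median. The shaded band runs from the 5th to the 95th percentile of all genes (-0.36 to 0.42); the sarcomere list defines the axis, and the 9 fatty acid genes have a median of 0.62 with 4 filled points.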

How the data were processed

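The authors deposited log2 intensities per probe set, made with RMA in the R package affy over all 14 arrays, per the file headers. Probe sets without a group mean above 3 were removed, per the same headers, and 0 such probe sets were present. The versions and the genome build were not given in the sources used here. The value table held 28763 probe sets, of which 21776 carried 1 gene symbol, 1592 several and 5395 none. For 998 genes with several probe sets the one with the highest mean was used, for 19931 genes in all. The medians of the arrays lay between 7.89 and 7.99. Intensities carry no read depth, so the number of arrays limits the precision.

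Samples were grouped by title. Group means over all 14 arrays were fitted with limma 3.58.1 in R 4.3.3 (10 residual degrees of freedom), which was also tested on simulated data. The slope fit added each array's sarcomere mean. Errors are standard errors for differences and slopes and SDs for group means. Named genes were the listed genes, Irx3 and Irx5, called genes of each list, up to 3 genes per list with the smallest p in the double mutant or on the slope, and the 3 genes most like each of several listed genes. Ppara was named outside that rule, after its value was seen. The genes and lists were chosen with earlier results of these data known. Alternatives covered single arrays, normalization, probe set choice, low signals, variance models, extra terms and the replicate block. Promoters came from the RefSeq table of GRCm38.p6. Cpt1b was left out because its probe set carries 2 symbols.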

Additional observations from a re-analysis of the deposited data

Results flagged for a closer look

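Cpt2 in the array labelled Irx3-/-;Irx5+/- replicate 4 lay apart from the other arrays of its label. It read 9.05 on the log2 scale, against 8.79 to 8.83 in the others, and the gap to the nearest was 0.857 of the whole range, past Dixon's 95% critical value for 4 arrays. It was the 1 case found among 24 sets of 4 arrays, and chance alone gives about 1 in 20. This is the array whose description names another genotype. Its Cpt2 signal lay inside the range of the Irx5-/- arrays, 8.72 to 9.997, and also inside that of the reference, 8.55 to 9.34. Without it the Cpt2 difference between Irx3-/-;Irx5+/- and the reference was -0.08, beside -0.02 with it.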

How the results depend on the processing

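Under 26 alternative settings, of which 14 leave out 1 array each, 1504 of 1521 values of the 9 genes stayed on the same side of the threshold, 8 lost a call, 9 gained one and 0 called values changed sign; 100 uncalled values did, 24 of them with the sarcomere term. Leaving out 1 array at a time, the double mutant against the reference gave 0 to 42 called genes and 0 to 1 of the 9 (main counts 4 and 0), Irx5-/- against the reference 0 to 1 (0), the double mutant against Irx3-/-;Irx5+/- 0 to 0 (1), the double mutant against Irx5-/- 0 to 1 (0), and the sarcomere slope 229 to 792 genes and 2 to 6 of the 9 (673 and 4). The 42 genes, with Cd36 among them, and the 229 came without Irx5-/- replicate 2, and without Irx5+/- replicate 1 the double mutant against the reference gave 23. For the double mutant against the reference, the count was 0 with the sarcomere or the endothelial term, 2 with the mean of a gene's probe sets and 7 with array weights. Against Irx3-/-;Irx5+/- it was 0 under both terms, median centring, quantile normalization, the mean of probe sets and genes above the median level. Irx5-/- against the reference gave 2 under quantile normalization, and the double mutant against Irx5-/- gave 2 with a trended, robust variance. The slope gave 326 genes with a shorter sarcomere list and 1228 without group terms. With the sarcomere mean over the shorter list Fabp3 lost its call (0.74, adjusted p = 0.131). Deviations from group means correlated between -0.18 and 0.19 over 19 pairs of arrays with the same replicate number. The labels give the numbers no shared litter or day and 4 of the 19 pairs exceeded 0.1, so the numbers were not taken as pairs. Of these 4, 3 joined the arrays numbered 3 of Irx5+/-, Irx3-/-;Irx5+/- and Irx5-/-, at 0.14, 0.16 and 0.19. A tie among those arrays was not tested. With the replicate block, 0 genes were called for the double mutant against the reference or Irx3-/-;Irx5+/-, and 415 on the slope, where Acadm lost its call (0.58, adjusted p = 0.108). Leaving out both end arrays, a setting chosen after seeing the data, gave 1 gene for Irx5-/- and 9 for the double mutant against the reference, 0 against Irx3-/-;Irx5+/-, and 117 on the slope with 1 of the 9. The causes were not tested. The 3 or 4 arrays per group limit the precision.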

Other observations

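The genes whose profile over the 14 arrays lay nearest to a listed gene were found by the root mean square difference after each gene was centred on its own mean, among 8158 genes that varied at least as much as the least variable of the 9, leaving out predicted genes, smell receptors and small RNAs. Nearest to Cd36 were Hspb8, a small heat shock protein gene (0.26 on the log2 scale), Irs1, an insulin receptor substrate gene (0.27), and Glo1, a glyoxalase gene (0.32), where the median candidate lay at 0.75. Nearest to Fabp3 were Auh, a mitochondrial hydratase gene of leucine breakdown (0.16), Palld, which encodes an actin-binding protein (0.17), and Uqcrfs1, a respiratory complex III gene (0.17; median 0.58). Nearest to Hadha were Sgca, a sarcoglycan gene of muscle (0.12), Slc25a39, a mitochondrial carrier gene (0.12), and Kcnj3, an atrial potassium channel gene (0.13; median 0.37). Nearest to Cpt1a were Mynn (0.12), Snx13 (0.13) and Lrch3 (0.15; median 0.34).

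Markers of the outer and cushion tissues of the heart were set against the sarcomere mean. Of 10 epicardial markers, 9 had slopes below 0 and 1 fell, the mesothelial gene Upk3b (-1.55 ± 0.29, limma adjusted p = 0.0108). Of 12 cushion mesenchyme markers, 9 were below 0 and 3 fell: Snai2 (-1.13 ± 0.26, adjusted p = 0.0367), Pdgfra (-1.14 ± 0.28, adjusted p = 0.0441) and Prrx1 (-0.92 ± 0.23, adjusted p = 0.0497). Without Irx5-/- replicate 2, 0 markers of either list passed. Without the array of uncertain label Snai2 alone of the cushion markers passed, and without double mutant replicate 2 none did. The 9 fatty acid genes all lay above 0 on the same axis. The embryonic globin gene Hbb-y averaged 7.80 in Irx5+/-, 10.87 in Irx3-/-;Irx5+/-, 7.55 in Irx5-/- and 9.66 in the double mutant, with a slope of -0.13 ± 0.97.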
